A study of Mus musculus with 2 samples.

Results

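The genes described here are 29 mouse genes of cholesterol synthesis, sensing, uptake, efflux, storage and turnover, among 43346 mouse genes in each table. They were listed by name for their roles in the pathway: 19 enzymes of synthesis and 10 genes that sense, take in, export, store or remove the sterol. All 29 have a row under their identifier. Not every gene of the pathway is analysed here.

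The series holds 2 RNA-seq libraries of midbrain from newborn mice of strain B6NCrl at postnatal day 0, 1 from pup 1 (replicate 1) and 1 from pup 3 (replicate 2). No animal was treated or carries an engineered allele per the labels, the sex was not recorded, and the 2 libraries belong to a single group with nothing to compare it to. Each library was made from 13 pg of total RNA of 1 midbrain, the amount in about 1 cell, with RNA longer than 200 nucleotides kept, a SMART-type amplification and spike-in RNAs. With 2 pups an exact two-sided test could not go below p = 0.5, so no test was run, and with 1 library per pup a difference between pups has no replicate check.

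Cholesterol is built from acetyl-CoA in the cytosol and endoplasmic reticulum: thiolase and synthase steps feed mevalonate, mevalonate is turned into isoprene units and prenyl diphosphates, these are joined into squalene, squalene is closed into a ring, and the ring is reworked in many steps. The brain is cut off from the lipoproteins of the blood and makes its own cholesterol, most of all in development, while neurons and glia build membranes and myelin. When membranes lack sterol, SCAP carries the SREBP factors to the Golgi for cleavage, and the INSIG proteins hold this complex back when sterol is plentiful.

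Levels are given as TPM, the share of transcripts after division of counts by length, which is meant to allow comparison between genes. The length used depends on the transcripts to which reads were assigned. It differed by more than 1.5-fold between libraries for Insig2, Lrp1 and Soat1, whose TPM are therefore less comparable. Detection means 1 TPM or more throughout. Detected members numbered 28 in pup 1 and 26 in pup 3, and 25 of 29 were detected in both. Among all 12144 genes detected in either library, 60.8% were detected in both. In pup 1 only, Tm7sf2, Sc5d and Srebf1 passed this level, and in pup 3 only, Soat1 did. Srebf1 missed it narrowly in pup 3, at 0.96 TPM, where its deposited interval of 1.2 to 2.29 TPM lay above it, and with the posterior mean TPM 26 members were detected in both. In this bulk RNA, fewer cells with a transcript and less of it per cell cannot be told apart. With 13 pg of RNA per library, neither can be told apart from loss of a transcript in sampling or amplification. The mean level was 20 TPM or more for 24 members, beside 6031 of the 12144 genes detected in either library. Of these members, 18 were among the 19 enzymes, and Sc5d was the enzyme below it. Tm7sf2 reached this mean on pup 1 alone. The median enzyme read 76.0 TPM in pup 1 and 79.7 TPM in pup 3, beside 26.5 and 32.2 TPM for the median gene detected in each library. The median of the other 10 members was 26.4 and 18.1 TPM. In pup 1, 16 enzymes and 5 of the other members lay above the median detected gene, and in pup 3, 17 enzymes and 2 of the others.

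**Figure D1:**
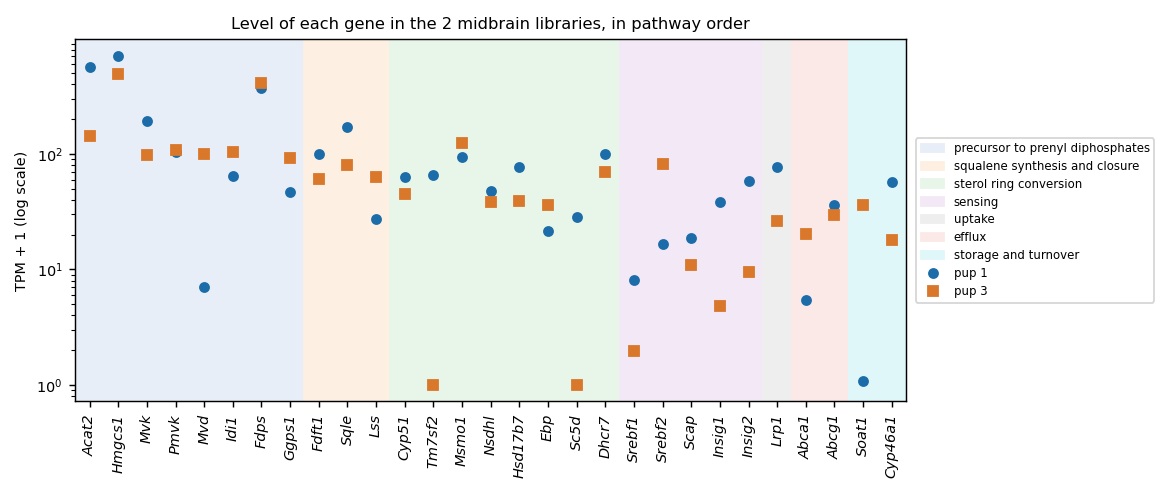
Level of each of the 29 genes in pup 1 (circles) and pup 3 (squares), as TPM plus 1 on a log axis, in pathway order with the step groups shaded. Hmgcs1, Fdps and Acat2 stand highest in both libraries, and Tm7sf2 and Sc5d sit at the floor of the plot in pup 3, as Soat1 nearly does in pup 1.

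Depth does not limit most members. The libraries held 26583225 and 33142647 expected counts, of which spike-ins took 2.05% and 2.21%, and mouse genes 26037002 and 32408655. The members took 0.452% and 0.393% of mouse gene counts, and a count of 0 allows up to 3 counts, or 0.115 and 0.0926 CPM, counts scaled by the mouse gene total. Markers of the labelled tissue were read in both pups: all 8 neuronal markers (summed 11780 and 9585 TPM), 6 of 7 for radial glia and astrocytes (2402 and 2839 TPM, Gfap at 0) and 5 of 6 for midbrain neurons (323 and 278 TPM). Of 10 oligodendrocyte lineage markers 5 were detected in both (167 and 156 TPM), with Mag and Mobp, which belong to formed myelin, at 0. These near-equal sums hide opposite differences: 2 markers, Sox10 and Cnp, were over 4-fold higher in pup 1, and 3, Olig1, Olig2 and Mbp, in pup 3. Among all detected genes, 25.9% and 20.5% were so called. Of the 6 midbrain markers, Slc6a3 (130 and 0 counts) was over 4-fold higher in pup 1 and Ddc (97 and 1631 counts) in pup 3. Markers of other tissue were also present, with all 4 meningeal markers at 2889 and 3938 TPM and all 4 erythroid markers at 1703 and 2860 TPM, both sums higher in pup 3. Ptgds made up most of the meningeal sum, at 2555 and 3513 TPM. By TPM Dcn and Igf2 were also higher in pup 3, Igf2 on 4706 and 4698 counts. Slc6a13 was lower, at 77.9 and 55.8 TPM. Microglial markers (4 of 6 in both, 129 and 107 TPM) and vascular markers (4 of 5, 274 and 307 TPM) were also read, and the 2 liver markers summed to 7.64 and 2.83 TPM. The microglial markers also differed: Ctss (1132 and 50 counts) and Cx3cr1 (156 and 3 counts) were over 4-fold higher in pup 1. C1qa, C1qb and Csf1r read higher in pup 3, none of them over 4-fold by the same rule. What these other cells added to the members' levels was not tested.

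Promoter windows from RefSeq (GRCm38.p6, from 250 bases before to 50 after a start, 300 bases) were found for 25 of the 29 members, and not for Fdps, Fdft1, Sqle and Abcg1. They were searched on both strands for the sterol regulatory element TCACNCCAC, to which SREBP factors bind, for CCAAT, the box of the factor NF-Y, for the GC box GGGCGG and for the E-box CACGTG. The exact sterol regulatory element was found in 1 of 25 members, Hmgcs1, beside 1.24% of all 32851 windows and 1.43% of the 8756 detected genes with a window. CCAAT was found in 21 of 25 members (84.0%) and in 15 of 16 enzymes, beside 37.4% of all windows and 43.3% of detected genes. Genes with more than 1 start were counted once if any window held the motif, and 5 members have several windows. The GC box was in 23 of 25 members (92.0%), beside 35.7% of all windows and 69.7% of detected genes. The E-box was in 6 of 25 (24.0%), beside 7.15% and 12%. Base composition of the members' windows, 61.2% G and C, was near the 60.9% of detected genes and above the 53.8% of all windows. Of 44 CCAAT matches in the members' windows, 25 began within the 100 bases before the start, and 11 members had at least 2 matches in 1 window, beside 16.8% of detected genes. A match says only that the letters are there. The windows of the 6 members with the highest mean TPM among those with a window are printed here, 5′ to 3′ on the gene's strand, because they differ in how many boxes they hold. For Dhcr7 and Pmvk, which have several windows, the window with the most matches is printed, and which start the reads came from was not tested. Capitals mark every match of the 4 motifs on either strand, so that ATTGG is CCAAT and CCGCCC is GGGCGG read on the opposite strand.
Hmgcs1 (chr13:119690101-119690400, plus strand): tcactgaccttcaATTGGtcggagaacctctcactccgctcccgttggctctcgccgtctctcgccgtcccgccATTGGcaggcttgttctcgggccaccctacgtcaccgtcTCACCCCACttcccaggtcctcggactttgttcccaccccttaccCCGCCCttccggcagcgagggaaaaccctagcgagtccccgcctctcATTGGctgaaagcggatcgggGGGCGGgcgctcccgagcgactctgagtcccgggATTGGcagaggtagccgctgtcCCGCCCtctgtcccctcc
Acat2 (chr17:12960676-12960975, minus strand): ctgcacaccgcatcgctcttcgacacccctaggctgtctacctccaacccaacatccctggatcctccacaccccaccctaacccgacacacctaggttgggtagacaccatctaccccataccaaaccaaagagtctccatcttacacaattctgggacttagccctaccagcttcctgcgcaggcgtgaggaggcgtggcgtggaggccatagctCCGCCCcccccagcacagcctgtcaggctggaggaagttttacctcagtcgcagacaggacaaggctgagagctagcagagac
Mvk (chr5:114444019-114444318, plus strand): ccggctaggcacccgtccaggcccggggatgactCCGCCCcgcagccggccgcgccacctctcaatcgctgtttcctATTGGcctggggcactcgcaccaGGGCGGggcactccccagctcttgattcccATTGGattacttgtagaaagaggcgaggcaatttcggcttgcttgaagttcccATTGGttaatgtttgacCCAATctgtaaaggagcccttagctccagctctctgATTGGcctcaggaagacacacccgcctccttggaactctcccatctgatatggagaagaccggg
Msmo1 (chr8:64733529-64733828, minus strand): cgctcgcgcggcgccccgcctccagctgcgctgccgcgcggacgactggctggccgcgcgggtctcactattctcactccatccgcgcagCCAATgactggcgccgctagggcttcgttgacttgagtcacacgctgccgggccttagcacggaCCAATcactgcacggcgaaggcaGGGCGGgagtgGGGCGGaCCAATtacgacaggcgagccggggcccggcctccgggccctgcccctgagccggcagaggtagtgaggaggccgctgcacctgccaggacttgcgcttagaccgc
Pmvk (chr3:89454291-89454590, plus strand): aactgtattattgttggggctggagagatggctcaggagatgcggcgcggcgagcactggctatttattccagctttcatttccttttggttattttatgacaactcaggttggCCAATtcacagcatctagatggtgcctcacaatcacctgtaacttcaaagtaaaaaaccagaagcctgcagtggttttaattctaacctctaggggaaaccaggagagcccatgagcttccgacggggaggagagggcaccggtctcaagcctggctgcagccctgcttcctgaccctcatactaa
Dhcr7 (chr7:143829964-143830263, plus strand): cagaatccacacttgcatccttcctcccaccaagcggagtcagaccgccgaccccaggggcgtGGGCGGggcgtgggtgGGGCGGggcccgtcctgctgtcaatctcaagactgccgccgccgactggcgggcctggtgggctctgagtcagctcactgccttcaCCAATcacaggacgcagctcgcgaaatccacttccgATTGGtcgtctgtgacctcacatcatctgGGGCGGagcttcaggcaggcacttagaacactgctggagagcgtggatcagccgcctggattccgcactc
Hmgcs1 holds 4 CCAAT boxes and the sterol regulatory element, whose match begins 137 bases before the start. Mvk holds 5 CCAAT boxes, Msmo1 3, Dhcr7 2 and Pmvk 1. Acat2, the other gene of the pathway's entry and among the highest in level, holds no CCAAT and no exact sterol element in this window, and its only match is a GC box.

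**Figure D2:**
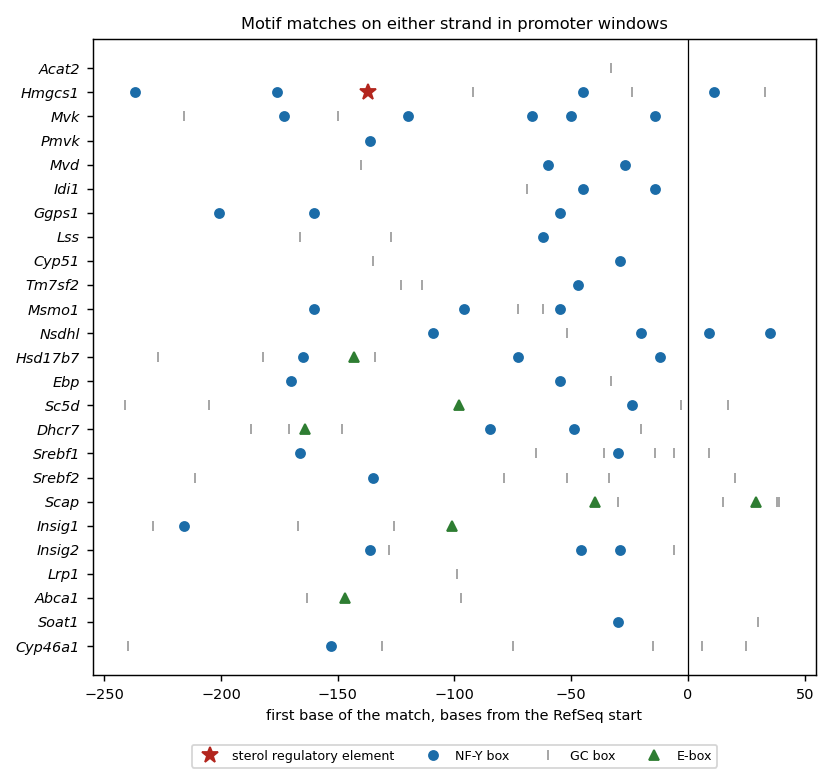
Position of each motif match in the promoter windows of the 25 members that have one, as the distance in bases of the match's first base from the RefSeq start, with the windows of a gene that has several drawn on 1 row. CCAAT boxes recur between 100 bases before the start and the start itself in most enzymes, and the single sterol regulatory element lies in Hmgcs1.

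Most of the members' summed TPM belonged to the steps up to the prenyl diphosphates. The 8 genes from acetyl-CoA to the prenyl diphosphates held 65.2% of the members' summed TPM in pup 1 and 66.4% in pup 3 (65.8% ± 0.825, SD, n = 2), although the sums themselves were 3143 and 2311 TPM. The 3 genes of squalene synthesis and closure held 9.39% and 8.71%, the 8 genes of ring conversion 15.6% and 15%, and the 5 sensing genes 4.29% and 4.49%. Each of these shares differed by less than 2 percentage points between pups. Efflux took 1.25% and 2.06%, storage and turnover 1.78% and 2.25%, and uptake, here Lrp1 alone, 2.44% and 1.09%. The uptake share follows gene TPM, while the Lrp1 counts were nearly equal, at 4784 and 4705. Sums over a group hide opposite moves of its members, which are given next.

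Hmgcs1, the cytosolic HMG-CoA synthase (ENSMUSG00000093930.1, GRCm38 chromosome 13, 119690379 to 119708260, plus strand), was the highest member in both pups, at 706 TPM in pup 1 and 487 TPM in pup 3, above 98.2% and 96.7% of detected genes. Fdps, which makes farnesyl diphosphate (ENSMUSG00000059743.8, chromosome 3, 89093588 to 89101959, minus strand), read 371 and 408 TPM and was the steadiest of the 3 leading genes. Acat2, the cytosolic thiolase that joins acetyl-CoA units (ENSMUSG00000023832.9, chromosome 17, 12942890 to 12960747, minus strand), was the least steady of them, with 564 TPM in pup 1 and 142 TPM in pup 3. Its counts were 19187 and 6930, a scaled ratio of pup 1 over pup 3 of 3.45 (exact 95% interval 3.35 to 3.54). Together these 3 genes held 52.2% of the members' TPM in pup 1 and 44.9% in pup 3. In the order of mean TPM, Hmgcs1 (597 ± 154 TPM, SD, n = 2) lay above Fdps (389 ± 25.7) in both pups, while Fdps and Acat2 (353 ± 298) overlapped. Paralogs of Acat2 were far apart from each other: Acat1, the mitochondrial thiolase, read 144 and 91.0 TPM, and Acat3, which is close to Acat2 in sequence, 0.73 and 0.30 TPM.

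The 3 steps from mevalonate to isopentenyl diphosphate behaved differently from each other. Mvk, mevalonate kinase, read 190.3 and 96.3 TPM, and Pmvk, the second kinase, 104 and 107 TPM, nearly the same in both pups. Mvd, the decarboxylase that follows (ENSMUSG00000006517.4, chromosome 8, 122433601 to 122443422, minus strand), read 6.02 TPM in pup 1 and 98.7 TPM in pup 3. Its counts were 163 and 3738, a scaled ratio of pup 3 over pup 1 of 18.4 (exact 95% interval 15.7 to 21.7). Mvd has a single annotated transcript, so no choice of transcript enters this ratio. Idi1, the isomerase of isopentenyl diphosphate, read 63.8 and 103 TPM and Ggps1, which makes geranylgeranyl diphosphate, 46.1 and 92.1 TPM, both higher in pup 3 by under 3-fold in counts. The isomerase paralog Idi2 was at 0 counts in both pups. Fdps exceeded Ggps1 by a log2 ratio of 2.98 in pup 1 and 2.13 in pup 3, where log2 ratios between genes are of TPM + 1.

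Squalene steps were detected throughout, and none of the 3 was over 4-fold apart. Fdft1, squalene synthase, read 98.6 and 60.0 TPM. Sqle, squalene epoxidase, which adds oxygen before closure, read 171 and 79.7 TPM. Lss, which closes the ring to lanosterol, went the other way, with 26.1 and 61.6 TPM. The log2 ratio of Lss over Sqle was -2.66 in pup 1 and -0.37 in pup 3. Coding transcripts of Lss held 71.8% and 82.3% of its counts but read only 12.8 and 26.8 TPM. In pup 3, a noncoding Lss form of 352 bases read 17.3 TPM on 99.8 counts. Coding transcripts of Sqle read 159 and 79.7 TPM. On coding transcripts Lss thus lay further below Sqle in both pups than by gene TPM. Fdft1, the step that commits farnesyl units to sterol, lay below Fdps, which supplies them, with log2 ratios of -1.90 and -2.74. Reads of Fdft1 may include some from Ctsb on the opposite strand, which shares 774 exon bases with it in GENCODE M21 and had 18371 and 21666 counts, because the sources used here do not say whether strand entered the counting.

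Among the 8 ring conversion genes, 6 were detected in both pups and each of these lay under 2.5-fold apart in counts. Cyp51, which removes a methyl group of lanosterol, read 61.6 and 43.7 TPM. Msmo1, the sterol methyl oxidase, read 92.6 and 123 TPM, and Nsdhl, the dehydrogenase that acts with it, 47.1 and 37.5 TPM. Hsd17b7, the keto reductase that acts with both to remove other methyl groups, read 76.0 and 38.3 TPM. Ebp, which moves the ring double bond, read 20.7 and 35.2 TPM, and Dhcr7, a reductase that ends 1 route to cholesterol, 99.9 and 68.7 TPM. Nsdhl and Ebp lie on the X chromosome. The 2 remaining genes had no count in pup 3. Tm7sf2, a sterol reductase (ENSMUSG00000024799.10, chromosome 19, 6062821 to 6068373, minus strand), had 1218 counts and 64.5 TPM in pup 1 and 0 counts in pup 3. By counting alone it was at least 410-fold higher in pup 1 (exact 95% interval of the count ratio), and 505-fold above the floor of 3 counts in the library. Amplified reads are not independent molecules, so 410 does not bound the difference between the pups. Its deposited TPM interval was 60.1 to 68.5 in pup 1 and 0.381 to 1.25 in pup 3. Sc5d, the sterol desaturase that acts just before Dhcr7 in 1 route (ENSMUSG00000032018.9, chromosome 9, 42251595 to 42264256, minus strand), had 972 counts and 27.7 TPM in pup 1 and 0 counts in pup 3. By the same interval, again of counting alone, it was at least 327-fold higher, and it was 403-fold above the floor. Its deposited TPM interval was 25.4 to 28.8 in pup 1 and 0.00107 to 0.113 in pup 3. Its neighbour in the route, Dhcr7, had 3311 and 3185 counts in the same libraries. Only 39.1% of the Tm7sf2 counts in pup 1 were assigned to coding transcripts, its leading transcript being a retained intron form with 44.6% of the gene's TPM, and Vps51 shares 532 exon bases with it on the same strand, with 1960 and 720 counts.

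Electron donors of these oxidations, none of them members, were present throughout: all 5 were detected in both pups and none was over 4-fold apart, beside 36.3%, 16.4% and 4.02% of all genes at means of 20 to 50, 50 to 100 and 100 TPM or more. Cyb5a, cytochrome b5, was at 306 and 336 TPM, Cyb5r3, its reductase, at 174 and 134 TPM, Por, the reductase of cytochrome P450 enzymes, at 146 and 112 TPM, and Cyb5b at 63.6 and 39.2 TPM.

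Of the 5 sensing genes, 4 were detected in both pups and 2 were over 4-fold apart, in opposite directions. Srebf2, the SREBP factor best known for sterol synthesis genes (ENSMUSG00000022463.7, chromosome 15, 82147181 to 82205379, plus strand), read 15.7 TPM in pup 1 and 80.5 TPM in pup 3. Its counts were 1253 and 8966, a ratio of pup 3 over pup 1 of 5.75 (exact 95% interval 5.42 to 6.10). Srebf1, whose product acts more on fatty acid genes, read 7.06 and 0.96 TPM from 323 and 87 counts, and was the lowest member in mean TPM. Srebf2 exceeded Srebf1 in both pups, by log2 ratios of 1.05 and 5.38. Scap, the escort of both, read 17.9 and 9.87 TPM.

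Insig1, the INSIG gene that is itself a target of the SREBP factors (ENSMUSG00000045294.10, chromosome 5, 28071363 to 28078662, plus strand), read 37.1 TPM in pup 1 and 3.85 TPM in pup 3, with 1571 and 228 counts and a ratio of pup 1 over pup 3 of 8.58 (exact 95% interval 7.46 to 9.90). The 2 libraries thus ordered Srebf2 and Insig1 oppositely: pup 3 had more Srebf2 and less Insig1. Insig2 (ENSMUSG00000003721.10, chromosome 1, 121304353 to 121332589, minus strand) read 57.0 and 8.52 TPM, which would place it 6.69-fold apart, yet its counts were 459 and 504 and their scaled ratio of pup 3 over pup 1 was 0.882 (exact 95% interval 0.776 to 1.00). The effective length by which counts were divided was 494 bases in pup 1 and 2598 in pup 3. In pup 1, the counts were assigned to 3 coding transcripts of 674, 557 and 471 bases (43.7%, 32.1% and 24.0% of the gene's TPM), and in pup 3 all 504 to the transcript of 2697 bases, which had 5.82 counts in pup 1. By gene TPM, Insig2 exceeded Insig1 in both pups (log2 ratios of Insig1 over Insig2 of -0.61 and -0.97), but the 2697-base Insig2 transcript alone stood at 0.14 TPM in pup 1, below Insig1.

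Of 7 other genes of sterol sensing and degradation, 4 were detected in both pups and 3 in pup 1 only. Erlin2 read 91.2 and 72.3 TPM and Mbtps1, a protease that cleaves the SREBP factors, 63.8 and 37.8 TPM. Syvn1, a ubiquitin ligase of the endoplasmic reticulum, read 3.58 and 50.3 TPM, over 4-fold higher in pup 3. Mbtps2, the protease of the following cut, read 35.2 TPM in pup 1 and was at 0 in pup 3, over 4-fold higher in pup 1.

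Lrp1, a large endocytic receptor for lipoproteins (ENSMUSG00000040249.11, chromosome 10, 127538161 to 127621148, minus strand), was the only uptake member. It read 76.7 and 25.15 TPM although its counts were nearly equal, at 4784 and 4705. The effective length was 3829 bases in pup 1 and 8213 in pup 3. The full-length coding transcript of 14888 bases held 4155 and 4531 counts and read 17.2 and 13.4 TPM, while a retained intron transcript of 763 bases read 48.2 and 9.93 TPM on 522 and 150 counts. On the full-length transcript the pups were thus closer than by the gene's TPM. Among 4 other lipoprotein receptor genes, 3 were detected in both pups. Lrpap1, the chaperone of these receptors, read 600 and 88.4 TPM on 10311 and 5242 counts, which are not over 4-fold apart, Lrp8 7.02 and 43.0 TPM, Vldlr 11.3 and 27.1 TPM, and Lrp2 0 and 16.9 TPM. Lrp8 and Lrp2 were over 4-fold higher in pup 3.

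Of the 4 export, storage and turnover genes, 2 were over 4-fold apart, both higher in pup 3. Abca1, which loads cholesterol onto lipid-poor apolipoproteins (ENSMUSG00000015243.4, chromosome 4, 53030787 to 53159895, minus strand), read 4.47 and 19.3 TPM from 741 and 4475 counts, a ratio of pup 3 over pup 1 of 4.85 (exact 95% interval 4.49 to 5.25). Abcg1, the transporter that passes sterol to formed particles, read 35.0 and 28.4 TPM and lay above Abca1 in both pups. Soat1, which esterifies cholesterol for storage (ENSMUSG00000026600.8, chromosome 1, 156424525 to 156474331, minus strand), had 1 count in pup 1 and 1891 in pup 3, which is 0.08 and 34.9 TPM. The scaled ratio of these counts was 1519 (exact 95% interval 272 to 60037, of counting alone). The deposited TPM interval of Soat1 was 0.251 to 1.51 in pup 1 and 31.0 to 38.8 in pup 3. Cyp46a1, the neuronal hydroxylase that turns cholesterol into a form that leaves the brain, read 56.0 and 16.9 TPM, with counts 2.94-fold higher in pup 1. Cyp46a1 and Soat1 were the 1 pair of 10 whose order turned, with log2 ratios of 5.72 and -1.0. The other 9 kept their direction by gene TPM, with deposited TPM intervals that did not overlap in either pup. For Insig1 and Insig2, the direction in pup 1 rests on the short Insig2 transcripts. For Dhcr7 and Sc5d, Sc5d had 0 counts in pup 3. How often other gene pairs keep their direction was not computed.

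Among the paralogs of members named here, 6 were detected in neither pup. Soat2, Cyp27a1, Cyp7b1 and Ch25h had 0 counts in both pups, and Cyp39a1, which acts on the product of Cyp46a1, had 969 counts (20.1 TPM) in pup 1 and 0 in pup 3. Of 7 oxysterol receptor genes and their targets, only Abca2 (34.3 and 3.38 TPM, 1416 and 610 counts) was detected in both. Nr1h3, Rxra and Rxrb were at 0 in both pups, Abcg4 read 78.3 and 0 TPM, Nr1h2 0 and 64.9 TPM, and Mylip 0 and 0.83 TPM.

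A gene was called over 4-fold apart when the whole exact 95% interval of its count ratio, scaled by the mouse gene totals, lay beyond 4-fold. This rule called 7 of 29 members, beside 46.5% of the 12144 detected genes. It called 3 higher in pup 1 (Tm7sf2, Sc5d and Insig1), beside 25.9% of genes, and 4 higher in pup 3 (Mvd, Srebf2, Abca1 and Soat1), beside 20.5%. Enzymes made up 3 of the called members out of 19, and the other genes 4 out of 10. Calls were fewer among abundant genes everywhere, so the members were also set beside genes of similar level. At a mean of 1 to 20 TPM, 3 of 5 members were called and 70.3% of genes. At 20 to 50 TPM, 3 of 9 members and 36.3% of genes were called. At 50 to 100 TPM, 1 of 8 members, Mvd, and 16.4% of genes were called, and at 100 TPM or more, 0 of 7 members and 4.02% of genes. Within each class the members' share was thus near or below the background. With TMM or DESeq2 scaling, which move all log2 ratios of pup 3 over pup 1 by -0.19 and -0.20 (spike-in scaling moves them by -0.11), the count was also 7, but Srebf1 entered and Abca1 left, so that 4 were higher in pup 1 and 3 in pup 3. When the ratio of TPM was used in place of counts, a choice made after the data were seen, 9 members were called, adding Srebf1 and Insig2, beside 49.4% of genes.

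**Figure D3:**
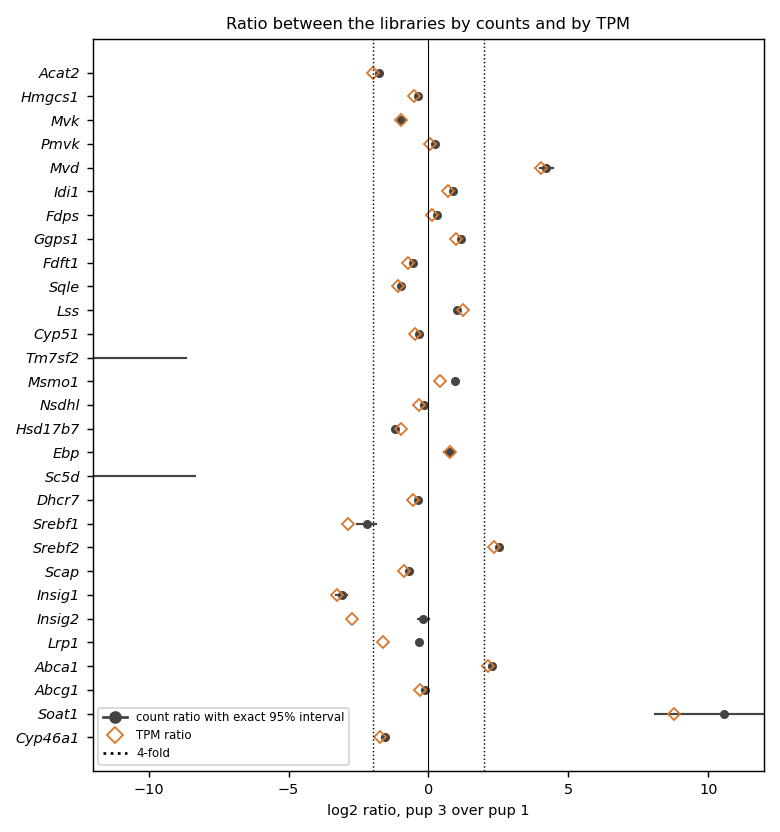
Ratio of pup 3 over pup 1 for each gene on a log2 axis, by scaled counts with the exact 95% interval (filled points and lines) and by TPM (open diamonds), with dotted lines at 4-fold and lines that run past the axis ended at its edge. Points and diamonds coincide for most genes and part for Insig2, Lrp1 and Soat1, and Tm7sf2 and Sc5d have only an upper bound because pup 3 had 0 counts.

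The order of the members was compared between pups as a description. The Spearman rank correlation over genes was 0.554 for the 29 members, 0.610 for the 19 enzymes and 0.490 for all 12144 detected genes, and Pearson r on log2(TPM + 1) was 0.436, 0.453 and 0.465. These are across genes within the same 2 libraries, and genes are not independent replicates. The median absolute log2 ratio of TPM + 1 was 0.98 for members, 0.73 for enzymes, 1.97 for the other 10 members and 1.56 for all detected genes. By TPM 18 members were higher in pup 1 and 11 in pup 3, and by counts the split was also 18 and 11 under each of 4 scalings. The median signed log2 ratio of pup 3 over pup 1 was -0.53 for members and -0.07 for all detected genes. In the order of mean TPM, 2 of 28 neighbouring pairs had pups that did not overlap, Hmgcs1 above Fdps and Pmvk above Dhcr7, so the order of the other neighbours is not resolved. Of all 406 pairs of members, 238 did not overlap. The same share over all genes was not computed, so this count is not a trait of the members.

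**Figure D4:**
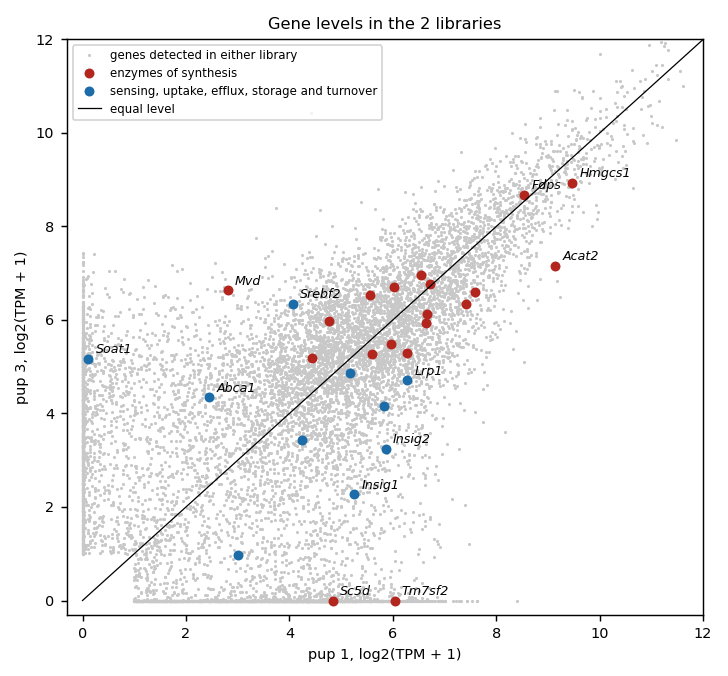
Level in pup 1 against pup 3 as log2(TPM + 1) for the 12144 genes detected in either library (grey), the 19 enzymes of synthesis (red) and the other 10 members (blue), with the line of equal level. Most enzymes lie near the line, and Mvd, Soat1, Sc5d, Tm7sf2 and Insig1 lie far from it.

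The transcripts to which reads were assigned also differed between pups. The leading transcript was the same in both pups for 13 of 17 members that have 2 or more transcripts and reach 50 counts in both libraries, beside 62.8% of 5311 genes. By share of TPM it differed for Mvk, Srebf1, Insig2 and Lrp1. By expected count it was the same for 14 of 17 and differed for Srebf1, Insig2 and Msmo1, while Mvk and Lrp1 kept theirs. The full coding transcript of Mvk, of 1686 bases, held 49.6% and 49.0% of the gene, but the remainder lay mostly on transcripts of 1602 and 913 bases in pup 1 (29.9% and 16.0%) and on the 1048-base transcript in pup 3 (50.6%, against 3.74% in pup 1). The leading transcript of Msmo1 by TPM was coding in both pups, at 60.0 and 53.6 TPM. By counts a retained intron transcript of 2969 bases led in pup 3, with 10.8 counts in pup 1 and 3308 in pup 3, against 1902 and 2374 for the coding one, and coding transcripts held 74.2% and 38.2% of its counts. For Hsd17b7 the leading transcript in both pups was a noncoding form of 810 bases, with 51.3% and 47.2% of the gene's TPM, although 83.5% and 80.5% of counts lay on coding forms. For Srebf1 the 323 counts of pup 1 lay mostly on coding transcripts of 4299 and 3177 bases, and all 87 counts of pup 3 on the 4063-base coding transcript. Effective length differed by more than 1.5-fold between libraries for 3 members, Insig2, Lrp1 and Soat1, beside 19.6% of detected genes. Hmgcs1, Mvd, Fdps, Ggps1, Fdft1, Srebf2, Scap, Insig1 and Cyp46a1 have 1 transcript each in the annotation, so their TPM follow their counts.

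**Figure D5:**
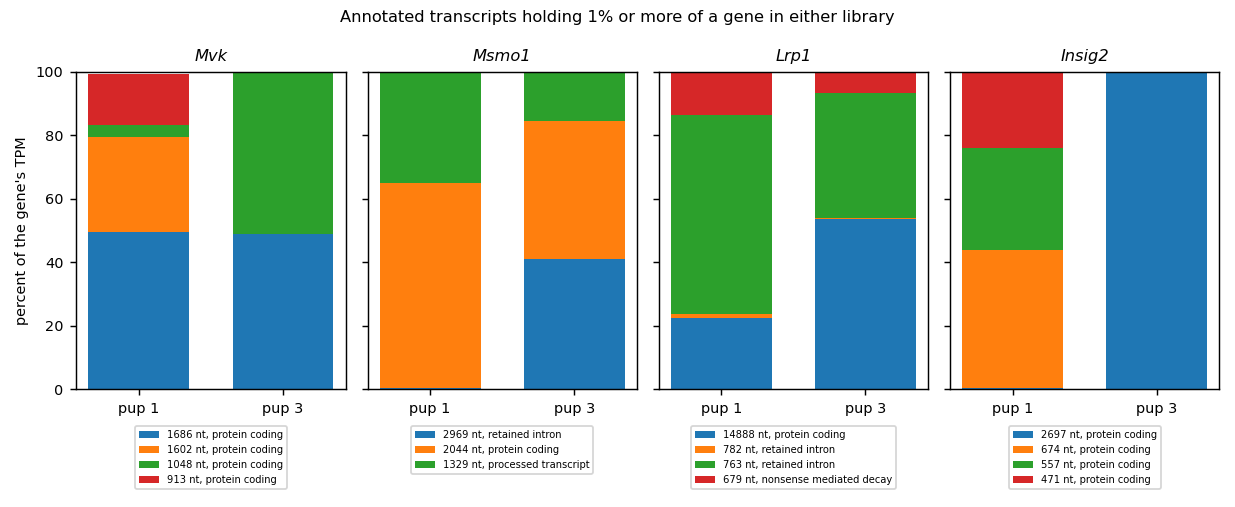
Share of each gene's TPM, in percent, on the annotated transcripts that held at least 1% in either pup, for Mvk, Msmo1, Lrp1 and Insig2, with transcript length in nucleotides and type in the key. Insig2 lies on 3 short transcripts in pup 1 and on the 2697-base transcript in pup 3, and the 763-base retained intron form of Lrp1 shrinks from 62.9% to 39.5%.

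Genes around the pathway were read alongside it. Of 65 genes in 8 lists, 39 were detected in both pups, 13 in 1 pup and 13 in neither, and 20 were over 4-fold apart. Of the 52 detected in either pup, 75.0% were thus detected in both and 38.5% over 4-fold apart, beside 60.8% and 46.5% of all detected genes. Fatty acid synthesis and desaturation, which shares the SREBP factors, had 9 of 12 genes in both, led by Fasn, fatty acid synthase, at 151 and 258 TPM, Scd2, a desaturase, at 171 and 188 TPM, Acly, which makes cytosolic acetyl-CoA, at 151 and 109 TPM, and Fads2 at 140 and 92.7 TPM. Users of the isoprenoid branch had 8 of 11, with Rabggtb at 94.5 and 79.8 TPM, Rabggta at 51.4 and 73.1 TPM, Fnta, a farnesyltransferase subunit, at 33.8 and 82.5 TPM, and Dhdds, which makes dolichol, at 5.04 and 58.1 TPM, over 4-fold higher in pup 3. Sterol transfer and endosomal handling had 7 of 10, with Osbpl9 at 116 and 48.9 TPM, Osbpl1a at 38.9 and 79.3 TPM (392 and 4096 counts, over 4-fold higher in pup 3), Scarb1 at 29.5 and 82.7 TPM and Osbpl2 at 41.0 and 60.7 TPM.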

How the data were processed

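RNA of 2 newborn mouse midbrains was measured, 1 library per pup. A single donor record stands in the labels of both pups. Per the deposited readme files, the genome was mm10 and the annotation GENCODE release M4. Aligner, quantification program and use of strand: not given in the sources used here. Expected counts, as deposited, divide reads that match several genes and were rounded for counting intervals. TPM values, as deposited, divide counts by effective length and scale to a common total over all rows, spike-ins and tRNA included. Alternatives used the deposited FPKM and the deposited posterior mean counts and TPM. The deposited scores used were the TPM interval bounds, which centre on the posterior mean and can miss the TPM itself, and the posterior SD of counts, at most 0.620% of a member's count. Leading transcripts came from the deposited percent of a gene's TPM on each transcript.

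Exact (Clopper-Pearson) 95% intervals and the floor of 3 counts reflect counting only, because amplified reads are not independent molecules. Gene positions and exon overlaps are from GENCODE M21 on GRCm38, and promoter windows from RefSeq on GRCm38.p6, matched by symbol. Every member is named. From 8 other lists, the paralogs and otherwise up to 4 genes with the highest mean TPM and those at 0 in both pups are named, except 1 result that is not reported here. Members and lists were chosen with earlier results of these data known. Tools were scipy 1.17.1, pandas 2.3.3, numpy 2.4.6 and matplotlib 3.10.9 under Python 3.11.15. Scaling factors alone came from DESeq2 1.42.0 and edgeR 4.0.16 under R 4.3.3.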

Additional observations from a re-analysis of the deposited data

How the results depend on the processing

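With a limit of 2-fold, 12 members were called apart, and with 8-fold 4 (Mvd, Tm7sf2, Sc5d and Soat1), because the limit itself moved. The count stayed at 7 with TMM, DESeq2 size factors, spike-in scaling and posterior mean counts. Under TMM and DESeq2 size factors, 6 of the 7 genes were shared. The main rule used no filter on low values, so the setting without a filter repeats it and tests nothing. Allowing 1 mismatch raised the members with a sterol regulatory element from 1 to 10 of 25, by construction of a looser motif, beside 24.2% of all windows. For the shares of the step groups, FPKM gives the same shares by construction and leaving out 1 of 2 pups always stays within 1 SD, so these 21 settings test nothing; the uptake share, for example, was 1.09% or 2.44% with 1 pup left out. Of the 69 other settings, 66 stayed within 1.5 times the reported count or within 1 SD of the reported value, among them detection of 23 to 26 members in both pups at other limits and units. The setting without a low-value filter and the pseudocount of 0.1 for gene pairs could not differ from the main result. A further 29 replaced the TPM of 1 gene with its posterior mean, a median change of -2.20%. They were judged against the SD of 2 pups and could hardly fail. With either pup left out, 26 and 28 members were detected, 21 and 23 had 20 TPM or more, 43 and 48 of the 65 other genes were detected, and all 10 pairs had intervals apart; the last 2 of these were chosen after the data were seen. The level of Srebf1 moved most with the posterior mean TPM, by 48.0%, within its spread between pups. No paired analysis was possible because both libraries belong to 1 group. Ratios of Soat1, Tm7sf2 and Sc5d rest on 0 or 1 count in 1 pup and are bounds or wide intervals of counting alone, although the other pup had 972 to 1891 counts.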
